A study of Mus musculus with 32 samples.

Results

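The second-messenger enzyme genes examined here were the protein-coding genes of 5 families, listed by symbol. The families were adenylyl cyclases (Adcy), cyclic nucleotide phosphodiesterases (Pde), phospholipases C (Plc), protein kinases C (Prkc) and the inositol trisphosphate receptors Itpr1, Itpr2 and Itpr3. These genes numbered 58 of 25040 genes with a position in the annotation, with 22 Pde, 15 Plc, 10 Adcy, 8 Prkc and 3 Itpr members. The rule reads gene symbols and no measured value, but the families were chosen with earlier results of these data known. The samples were kidney, liver, lung and spleen of female C57BL/6J mice aged 6 to 7 months. Damage-seq, which maps cisplatin-DNA adducts that are present, and XR-seq, which maps the oligomers cut out by nucleotide excision repair, were each made from 2 libraries of cisplatin-treated mice per organ, without an untreated counterpart. RNA-seq was made from 2 libraries of mice given cisplatin by intraperitoneal injection at 10 mg per kg and 2 libraries of mice given saline per organ. The sample labels give 2 h after treatment for every library, whereas the treatment protocol places injection and sacrifice 4 h apart, at ZT1 and ZT5. All tissues were whole organs, so each value is an average over the cell types of the organ.

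Second messengers carry a signal from a receptor at the cell surface to enzymes and channels inside the cell. Adenylyl cyclases are switched by G proteins and make cyclic AMP, and phosphodiesterases hydrolyse cyclic AMP, cyclic GMP or both. Phospholipases C split a membrane lipid into inositol trisphosphate, which opens the calcium channels encoded by the Itpr genes, and diacylglycerol, which together with calcium activates the classical protein kinases C.

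A Damage-seq library held 1570404 to 6438357 reads on genes, an XR-seq library 10656908 to 59761739 and an RNA-seq library 15612165 to 162261190. The 58 genes took 1.08 to 1.19% of the Damage-seq reads, 0.649 to 0.941% of the XR-seq reads and 0.0267 to 0.249% of the RNA-seq reads. The sum of each organ's markers was highest in the organ named by the label. The submitters state that they exchanged the treatment labels of the lung and spleen RNA-seq libraries after deposition, and the present labels were used. Cdkn1a, a p53 target induced by DNA damage, was higher in every cisplatin library than in both controls of its organ, by 4.33, 3.07, 1.90 and 1.495 on the log2 scale in kidney, liver, lung and spleen. In the edgeR test of cisplatin against control its adjusted p was 0.00735 in kidney and 0.0193 in lung. The same test did not call it in liver (adjusted p = 0.262) or spleen (adjusted p = 0.461). The dispersion index of a pair is the chi-square of its counts over the degrees of freedom, and sampling noise alone gives 1. It was 2.75 for the 2 control libraries of lung and 2.99 for those of spleen, above sampling noise. The other RNA-seq pairs were at 39.3 to 350. Pairs of RNA-seq controls at 3 or below were counted as 1 sample each. The tests in these 2 organs therefore set 2 cisplatin samples against 1 control, which was assumed to vary like the cisplatin pair. The study describes its replicates as biological, whereas the labels do not tie libraries to separate animals, and p-values measure the spread between these libraries.

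The families consist largely of long genes. The median length of the 58 genes was 122454 bp, with a range from 15039 bp for Adcy4 to 1503514 bp for Pde4d, against a median of 20512 bp for the other 18581 protein-coding genes. Genes of 100 kb or more made up 55.2% of the members (32 of 58) and 12.6% of the others. The density of GG dinucleotides, the main target of cisplatin, was alike, at a median of 117 GG per kb over both strands in the members and 121 in the others.

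In both kidney and lung 4 members were lower in RNA after cisplatin: Pde4d, Plcb1, Prkca and Prkce, which lie on GRCm38 at chr13:108449948-109953461, chr2:134786067-135475258, chr11:107933387-108343928 and chr17:86167785-86657919. How many of all genes were lower in both organs was not counted. Promoter sequences from RefSeq (GRCm38.p6, 250 bases before to 50 after a transcript start, printed 5′ to 3′ in the sense of the gene) are shown for 3 of the 4 members because adducts and repair were measured per strand at GG. Capitals mark runs of CC, each the complement of a GG on the transcribed strand (TS), and gg in lower case is a GG on the non-transcribed strand (NTS). The Pde4d sequence, chr13:108653927-108654226 on the plus strand, belongs to a start 204229 bp inside the gene, and holds 17 GG on the TS and 12 on the NTS. The Plcb1 sequence, chr2:134785914-134786213 on the plus strand, holds 27 on the TS and 49 on the NTS. The Prkca sequence, chr11:108343839-108344138 on the minus strand, holds 35 on the TS and 29 on the NTS.
Pde4d: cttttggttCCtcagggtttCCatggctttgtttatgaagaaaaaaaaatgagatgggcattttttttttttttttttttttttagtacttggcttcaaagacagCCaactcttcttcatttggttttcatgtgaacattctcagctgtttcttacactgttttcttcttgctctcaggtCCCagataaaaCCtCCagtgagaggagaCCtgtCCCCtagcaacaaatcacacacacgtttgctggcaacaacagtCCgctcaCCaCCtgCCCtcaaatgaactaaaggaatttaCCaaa
Plcb1: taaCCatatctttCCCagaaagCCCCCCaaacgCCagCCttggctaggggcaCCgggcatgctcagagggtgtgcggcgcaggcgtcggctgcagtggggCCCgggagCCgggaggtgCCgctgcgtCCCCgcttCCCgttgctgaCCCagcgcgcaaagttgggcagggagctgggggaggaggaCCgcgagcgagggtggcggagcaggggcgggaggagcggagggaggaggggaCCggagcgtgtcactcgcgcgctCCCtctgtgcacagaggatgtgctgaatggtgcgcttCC
Prkca: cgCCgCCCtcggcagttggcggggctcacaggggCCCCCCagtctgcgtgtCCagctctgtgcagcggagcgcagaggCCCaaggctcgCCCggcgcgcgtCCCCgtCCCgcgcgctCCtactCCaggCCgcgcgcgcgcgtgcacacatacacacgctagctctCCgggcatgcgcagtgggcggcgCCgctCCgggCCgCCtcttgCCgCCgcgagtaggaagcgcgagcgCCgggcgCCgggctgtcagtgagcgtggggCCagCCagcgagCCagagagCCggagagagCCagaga
The letters TGACG, the core of the cyclic AMP response element, were in none of the 3 on either strand. Among the 77 RefSeq promoters that matched 45 members, 11 (14.3%) held TGACG on either strand, against 20.8% of all 32851 promoters of this length. The full element TGACGTCA was in 1 of the 77 and in 1.79% of all.

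In untreated mice the leading member of a family differed among organs, with 4 different leaders for the adenylyl cyclases and some shared by 2 organs in the other families. Levels below are RPKM, reads per kb of exon per 1000000 reads on genes, as the mean ± SD of 2 control libraries. The control pairs of lung and spleen, with a dispersion index of 2.75 and 2.99, counted as 1 sample in the tests. Those of kidney and liver were at 83.7 and 350. The small SDs of lung and spleen may therefore not show the spread between mice. Among adenylyl cyclases the highest level was Adcy6, a calcium-inhibited isoform, in kidney (24.4 ± 1.85), Adcy9 in liver (3.39 ± 1.55), Adcy4 in lung (22.8 ± 1.28) and Adcy7, an isoform of blood cells, in spleen (30.6 ± 0.601). In liver the next member, Adcy6, lay at 2.97, within that spread of Adcy9, while in the other organs the next cyclase was at 3.07 to 9.15.

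Among phosphodiesterases Pde8a, a cyclic AMP-specific enzyme, led in kidney (19.3 ± 0.842) and liver (10.4 ± 1.53), where Pde3b at 9.85 lay within its spread. In lung the cyclic GMP-specific Pde9a (13.4 ± 0.132) and Pde5a (13.4) were level, and in spleen Pde7a was highest (17.2 ± 0.129). Among phospholipases C the calcium-signalling isoform Plcg2, which acts below the B-cell receptor, led in spleen (53.3 ± 0.438) and kidney (7.64 ± 2.09), and Plcg1 led in lung (15.6 ± 0.0191) and liver (4.50 ± 1.57). In kidney Plcg1 at 5.56 and in liver Plcl2 at 3.72 lay within the spread of the leading member.

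Prkcd, a kinase C that needs diacylglycerol but no calcium, was the highest Prkc member in spleen (34.7 ± 0.412) and kidney (17.0 ± 1.77), where Prkcz at 15.7 lay within its spread. Prkci, an atypical kinase C that needs neither, led in lung (32.1 ± 0.751), and in liver Prkce (3.75 ± 0.861) and Prkci (3.75) were level. The leading inositol trisphosphate receptor was Itpr1 in kidney (20.3 ± 2.30), Itpr2 in lung (6.49 ± 0.108) and liver (3.41 ± 0.0446, with Itpr1 at 2.89 ± 0.720), and Itpr3 in spleen (14.4 ± 0.446). In liver Itpr1 overlapped Itpr2, at 3.40 and 2.38 against 3.38 and 3.44.

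Each organ was tested against the mean of the other 3 with a required difference of more than 1 on the log2 scale and an adjusted p under 0.05. Of 57 members tested, 17 were higher and 8 lower in kidney (13.3 and 10.3% of all genes tested), 5 higher and 21 lower in liver (11.4 and 17.1%), 13 higher and 2 lower in lung (12.9 and 2.89%), and 10 higher and 8 lower in spleen (15.8 and 12%). The kidney-high members included Pde1a (17.5 against 0.621 to 1.39 RPKM elsewhere) and Pde4c (10.0 against 0.233 to 1.84). Those of lung included Adcy8 (2.58 against 0.00635 to 0.0133) and Adcy2 (3.91 against 0.0243 to 0.111), both cyclases known mainly from brain, and those of spleen included Prkcb (28.5 against 0.354 to 3.96). These 5 organ differences had adjusted p of 2.63e-06, 1.87e-06, 8.34e-05, 4.66e-06 and 3.67e-06. In these bulk samples fewer cells of a type and less RNA per cell cannot be told apart.

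Cisplatin lowered members of all 5 families in kidney and raised none. Of 52 members tested, 11 were lower and 0 higher, where 2.65% of all 15461 genes tested were lower and 2.4% higher (5.05% in either direction). The test required a change of more than 0.4 on the log2 scale with an adjusted p under 0.05. The median member changed by -0.61 and the median gene by -0.003. In 37 of the 52 both cisplatin libraries lay below both controls, which held for 32.1% of all genes.

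Pde4d, a cyclic AMP-specific phosphodiesterase, had 2.97 and 2.91 RPKM in the kidney controls and 0.395 and 0.439 after cisplatin. It fell by 2.75 on the log2 scale (SE 0.21, adjusted p = 0.00445), the largest change among the members called in this organ, and the groups were far apart. Plch1, a phospholipase C of the eta class, was near the low end of expression, at 0.497 and 0.473 against 0.126 and 0.0739 RPKM. It fell by 2.28 (SE 0.41, adjusted p = 0.0417).

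Prkce, a calcium-independent kinase C, had 5.43 and 6.97 RPKM in the controls and 1.37 and 2.05 after cisplatin, a fall by 1.79 (SE 0.29, adjusted p = 0.0334). The cyclic GMP-specific Pde9a went from 11.02 and 8.96 to 2.77 and 2.91 RPKM and fell by 1.75 (SE 0.20, adjusted p = 0.0152). Adcy9, a widely expressed cyclase, went from 2.51 and 3.63 to 0.974 and 0.892 RPKM and fell by 1.68 (SE 0.30, adjusted p = 0.0425). In none of these did a cisplatin library reach the lower control.

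The classical kinase Prkca went from 2.42 and 2.79 to 0.833 and 0.872 RPKM, a fall by 1.55 (adjusted p = 0.0268). Plcl2 and Plcl1, phospholipase C-like proteins without catalytic activity, fell by 1.45 (adjusted p = 0.0351) and 1.28 (adjusted p = 0.0322), with Plcl1 at 5.25 and 5.30 RPKM in the controls and 2.30 and 1.90 after cisplatin. Plcb1, which is activated by Gq, went from 3.85 and 3.06 to 1.42 and 1.36 RPKM and fell by 1.24 (adjusted p = 0.0326). The 2 controls and the 2 cisplatin libraries did not overlap in any of these.

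The 2 highest levels among the members called in kidney were those of Itpr1 and Prkcz. Itpr1, the main renal inositol trisphosphate receptor here, went from 21.9 and 18.7 to 8.997 and 8.74 RPKM, a fall by 1.13 (adjusted p = 0.0288). Prkcz, an atypical kinase C, went from 15.2 and 16.1 to 6.92 and 7.37 RPKM and fell by 1.07 (adjusted p = 0.0434). The 5 members with the largest positive values in kidney were Pde4b (0.61), Plcd1 (0.52), Adcy4 (0.39), Plcd3 (0.36) and Adcy7 (0.26), and none passed the test, with an adjusted p of 0.307 for Pde4b. The number called rested on single libraries. It was 1 (Pde4d) without cisplatin library 1, 4 without cisplatin library 2 and 18 without control library 1. Of the marker lists of other cells, the B-cell sum (6 of 6, none at 0) lay at 14.1 to 17.4 reads per 1000000 in the kidney controls and 7.11 to 7.56 after cisplatin, and the liver sum (6 of 6) at 316 to 431 and 207 to 252, and their part in the kidney values was not tested.

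In lung 9 of 55 members were lower and 0 higher, against 1.97% lower and 0.126% higher of 18245 genes tested (2.1% in either direction). The median member changed by -0.69 and the median gene by 0.02, and in 39 of the 55 both cisplatin libraries lay below both controls (33.0% of all genes). Among the 9, Prkce was highest in the lung controls, at 15.3 and 15.4 RPKM, and had 2.26 and 2.06 after cisplatin. It fell by 2.85 (SE 0.16, adjusted p = 0.00413). Plcb1 went from 3.15 and 3.15 to 0.434 and 0.652 RPKM, a fall by 2.54 (SE 0.29, adjusted p = 0.0227).

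The classical kinase Prkcb, which acts below the B-cell receptor, went from 3.87 and 4.06 to 0.932 and 0.862 RPKM and fell by 2.18 (SE 0.22, adjusted p = 0.0193). Pde3b, a phosphodiesterase of fat, liver and blood vessels, went from 6.79 and 7.18 to 2.13 and 1.83 RPKM and fell by 1.85 (SE 0.18, adjusted p = 0.0185). Itpr2 went from 6.42 and 6.57 to 1.85 and 2.07 RPKM, a fall by 1.75 (SE 0.16, adjusted p = 0.0185). In all of these both cisplatin libraries lay far below the lower control.

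Pde4d (1.78 and 1.99 to 0.634 and 0.648 RPKM), Prkca (6.59 and 6.59 to 2.42 and 2.05), Plcg2 (10.4 and 9.06 to 3.80 and 2.83) and Plcb4 (10.3 and 10.0 to 3.20 and 4.37) fell by 1.61, 1.58, 1.53 and 1.43, with adjusted p of 0.0361, 0.0229, 0.0433 and 0.0463. The 5 largest positive values in lung belonged to Pde4c (1.06), Plcd4 (0.68), Pde6b (0.44), Plch1 (0.43) and Plcg1 (0.39), with adjusted p of 0.366 for Pde4c and at least 0.742 for the others. Adcy10, the soluble cyclase, had the lowest value in this organ (-3.39), at 0.0372 and 0.0847 RPKM in the controls and 0.00887 and 0.00564 after cisplatin, and did not pass the test (adjusted p = 0.0811). With 1 fit over all organs, which shares their spread, 4 members were called, and in that fit 0 were called without cisplatin library 1 or without cisplatin library 2.

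Markers of other cells moved in the same lung libraries. The sum of 6 B-cell markers (6 of 6 in the files, none at 0) lay at 325 to 336 reads per 1000000 in the controls and 68.2 to 93.2 after cisplatin, and that of 6 T-cell markers (6 of 6) at 146 to 151 and 38.1 to 43.7. Each of the 12 genes was lower in both cisplatin libraries than in both controls. The sum of 6 fat-cell markers (6 of 6) was 1625 to 1641 in the controls and 116 to 335 after cisplatin. Red cell markers (6 of 6) were also lower in both cisplatin libraries, at 8074 to 8466 and 3478 to 4563, whereas neutrophil markers (6 of 6) were at 307 to 311 and 315 to 388 and smooth muscle markers (6 of 6) at 486 to 503 and 448 to 512. The part of these in the lung values of Prkcb, Plcg2 and Pde3b was not tested.

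**Figure D1:**
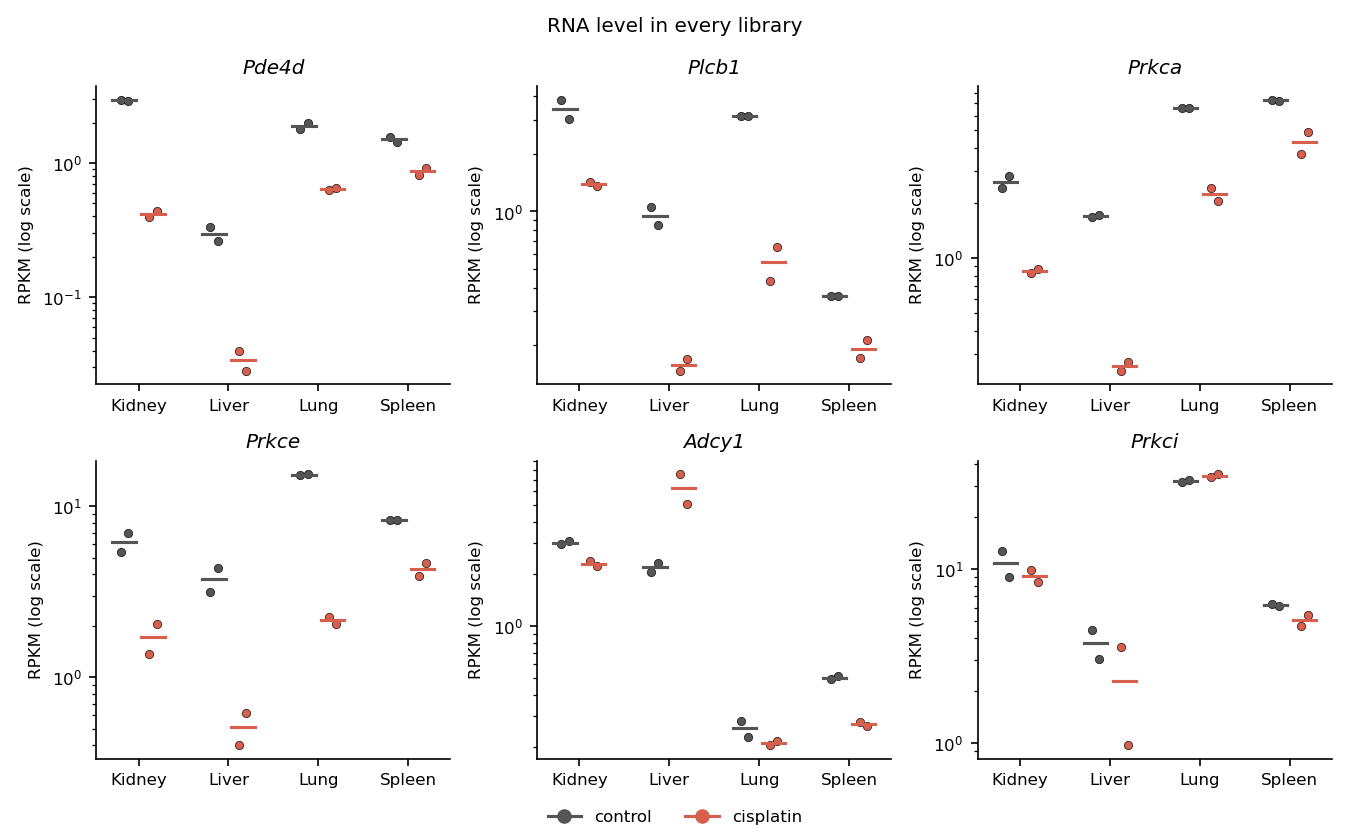
RNA level in RPKM (log scale, a separate axis range per gene) of 6 members in every RNA-seq library, with controls in grey, cisplatin in red and the mean of each pair as a bar. In each organ both cisplatin libraries lie below both controls for Pde4d, Plcb1, Prkca and Prkce; Adcy1 is higher after cisplatin in liver (7.54 and 5.05 against 2.05 and 2.33), and Prkci shows overlap in kidney and liver.

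In liver no member was called, and neither was any of the 13861 genes tested by edgeR (0%). Of the 46 members tested, 20 had an unadjusted p under 0.05, 19 of them lower, as had 1261 of all genes, and DESeq2 called 7 members, all lower. The median member was at -0.81 and the median gene at 0.06, and 38 of the 46 values were below 0. The pairs of this organ differed most from each other, with a dispersion index of 350 in the controls and 241 after cisplatin.

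The lowest liver values were large. Pde4d went from 0.332 and 0.263 to 0.0398 and 0.0285 RPKM (log2 change -3.09, SE 0.49, adjusted p = 0.0987), and Prkce from 3.14 and 4.36 to 0.399 and 0.619 (-2.82, SE 0.49, adjusted p = 0.110). Pde7b, a cyclic AMP-specific enzyme, had -2.77 (adjusted p = 0.0987) and Prkca -2.68 (adjusted p = 0.0987). Plcl1 was seen by 87 reads in the controls and 2 after cisplatin, too few for a fold change. Without cisplatin library 1 or 2 the number called was 21 and 13, and without control library 1 or 2 it was 1 in each case. The B-cell sum was 12.3 to 14.2 reads per 1000000 in the liver controls and 8.995 to 9.07 after cisplatin, and the fat-cell sum 6.20 to 7.77 and 26.8 to 69.1, and their part was not tested. In 27 of the 46 members both cisplatin libraries lay below both controls, against 17.97% of all genes.

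In spleen 0 of 56 members were called, against 0.163% of 17748 genes by edgeR (0.152% higher and 0.0113% lower), and 0 by DESeq2. An unadjusted p under 0.05 was reached by 7 members, all lower, and by 752 of all genes. The median member was at -0.30 and the median gene at 0.02, with 43 of 56 members below 0, and 38 of the 56 had both cisplatin libraries below both controls (33.0% of all genes). Prkce went from 8.31 and 8.35 to 3.92 and 4.69 RPKM (-0.93, SE 0.16, adjusted p = 0.873), the smallest adjusted p among the members of this organ. A sum of 6 pancreas markers (6 of 6) lay at 14.8 to 16.2 reads per 1000000 in the spleen controls and 1428 to 1859 after cisplatin, and its part in the spleen values was not tested.

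Of the 45 members tested in all 4 organs, 27 had a negative value in each organ and 2 a positive one. The share of all genes with a negative value in each organ was not computed. Other protein-coding genes of 300 kb or more also had negative medians, at -0.88, -1.44, -0.99 and -0.69 in kidney, liver, lung and spleen. By family, the median of the kidney, liver, lung and spleen values was lowest for Itpr in liver (-1.25), the Prkc medians were -1.16 in both liver and lung, and the Adcy medians ran from -0.17 in liver to -0.69 in lung. In kidney 3 of 8 Prkc, 4 of 14 Plc, 2 of 19 Pde, 1 of 8 Adcy and 1 of 3 Itpr members were called lower, against 2.65% of all genes. In lung the counts were 3 of 8, 3 of 14, 2 of 20, 0 of 10 and 1 of 3, against 1.97% of all genes. The families were not matched for length. Among the other protein-coding genes of 300 kb or more, 19.4% were called lower in kidney and 19.7% in lung.

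Adcy1 responded differently among organs. The organ by treatment interaction, an F test in 1 fit over all RNA-seq samples, was called for Adcy1 (adjusted p = 0.0400), where 0.194% of 19087 genes were called. It encodes a calcium-stimulated cyclase known from neurons. In liver it had 2.05 and 2.33 RPKM in the controls and 7.54 and 5.05 after cisplatin, and in kidney 2.97 and 3.09 against 2.37 and 2.23. In lung it had 0.283 and 0.228 against 0.204 and 0.217, and in spleen 0.491 and 0.513 against 0.278 and 0.266. It was thus higher in both cisplatin libraries in liver and lower in both in the other 3 organs. In this fit the liver response exceeded that of lung by 1.69 (SE 0.32) and that of spleen by 2.41 (SE 0.32) on the log2 scale, and the kidney response differed from that of liver by -1.82 (SE 0.29). Tested in liver alone the change of 1.52 (SE 0.33) was not called (adjusted p = 0.208). Leaving out 1 library at a time gave an interaction p, adjusted, between 0.0316 and 0.133, and the call was lost without any 1 of the kidney libraries, of the cisplatin libraries of lung or spleen, of the liver controls, or without spleen control 2. Without liver cisplatin library 1 there were 4 members with a called interaction.

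The values followed gene length. In kidney the median log2 change of members was -0.07 under 30 kb, -0.20 at 30 to 100 kb, -0.97 at 100 to 300 kb and -1.24 from 300 kb. Of these classes 0 of 8, 1 of 14, 4 of 15 and 6 of 15 members were called lower. The other protein-coding genes ran the same way, at 0.18, -0.17, -0.69 and -0.88. In lung the members were at 0.15, -0.12, -0.95 and -1.38, with 0 of 8, 0 of 15, 2 of 16 and 7 of 16 called lower. The other genes in lung were at 0.11, -0.08, -0.51 and -0.99. In liver the members from 300 kb were at -2.22 and the other genes at -1.44, and in spleen at -0.74 and -0.69. Of the other protein-coding genes in these length classes, 0.319, 1.67, 14.6 and 19.4% were called lower in kidney. In lung those shares were 1.01, 1.36, 5.24 and 19.7%.

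Across members Spearman's rho between length and log2 change was -0.62 in kidney (n = 52), -0.78 in liver (n = 46), -0.71 in lung (n = 55) and -0.58 in spleen (n = 56), given as a description over genes that share the same libraries. Across all genes tested it was -0.44, -0.55, -0.32 and -0.32. Pde9a, at 90.1 kb, was the one called member under 100 kb, and in lung its level overlapped between groups (13.3 and 13.5 against 11.02 and 20.5 RPKM). Pde4b, at 520 kb among the longest members and named after its values were seen, had 2.56 and 2.09 RPKM in the kidney controls and 3.18 and 3.60 after cisplatin.

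**Figure D2:**
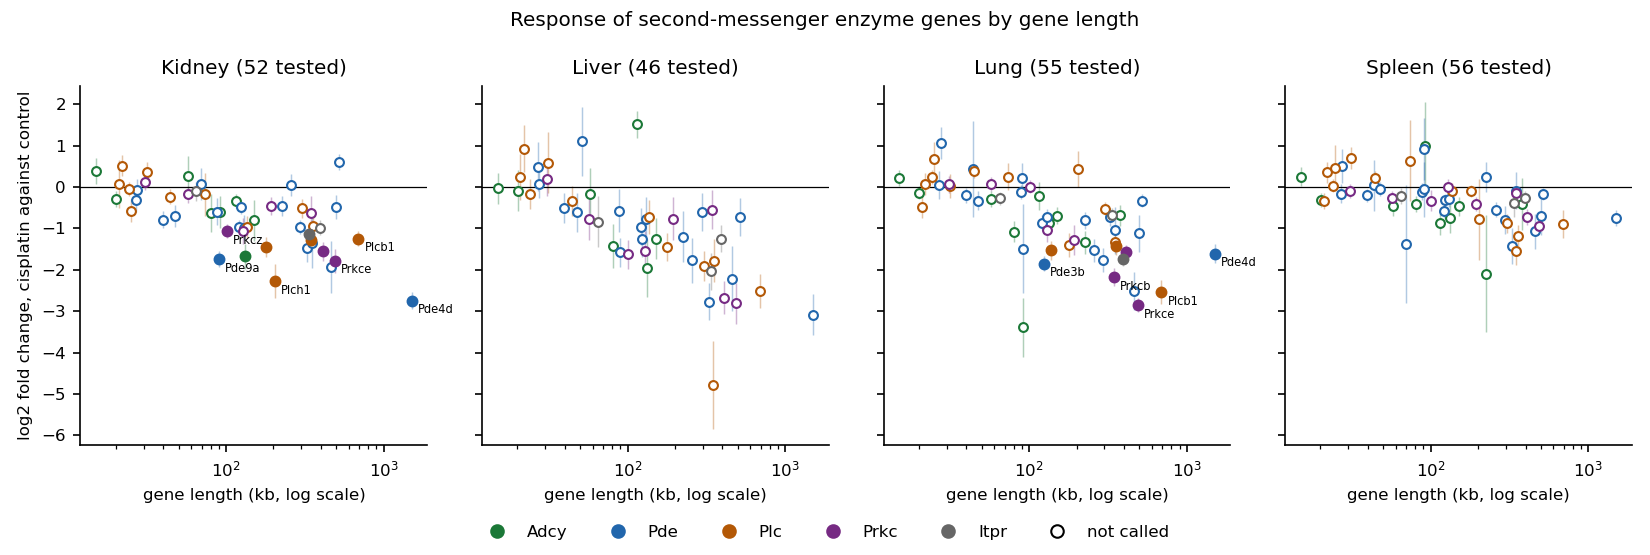
Log2 change after cisplatin against gene length in kb (log scale) for each member tested, by organ, with bars of 1 SE, colours for families and filled points for members called. The values fall with length in every panel, and all called members but Pde9a are longer than 100 kb.

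The share of long members in the summed RPKM of the families fell. Members of 100 kb or more held 52.9 and 58.2% of the members' summed RPKM in the kidney controls and 39.4 and 46.3% after cisplatin, 50.3 and 50.3% against 31.2 and 31.6% in lung, and 60.8 and 61.0% against 50.5 and 51.0% in liver. In spleen the shares were 53.5 and 53.6% against 51.6 and 51.9%. In each organ both cisplatin libraries lay below both controls in this share, which was not computed over all genes. The summed RPKM of members under 30 kb overlapped between groups in kidney, liver and spleen. In lung that sum was 56.8 and 53.5 in the controls and 64.2 and 57.2 after cisplatin.

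Among partners of these enzymes outside the 5 families the G protein alpha subunits held the most calls. Of 13 tested in kidney, where 2.65% of all genes were lower and 2.4% higher, 3 were lower and 1 higher. Gna14, Gnaq and Gna12 were the lower ones (by 1.58, 1.23 and 1.18 on the log2 scale) and Gna13 was higher (1.05). In lung 1 of 13, Gnaq, was lower (by 1.36), where 1.97% of all genes were lower and 0.126% higher. Among 17 cyclic AMP effectors 1 was called in kidney, the transcription factor Crem, which was higher (1.53). In lung 1 was called, Prkar2b, a regulatory subunit of protein kinase A, which fell by 1.84. Of 20 calcium effectors tested in kidney 1 was called, Nfatc2, which fell by 2.05. These kidney counts, 1 of 17 and 1 of 20, lay near the 5.05% of all genes called there in either direction (2.1% in lung). No cyclic GMP synthesis enzyme or kinase and no diacylglycerol kinase was called in any organ. No partner was called in liver or spleen, where 0 and 0.163% of all genes were called. The medians of these lists lay between -0.48 and 0 in kidney and lung.

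XR-seq on the TS separated the organs for many members. Levels are reads per 1000000 reads on genes per 1000 GG. Against the mean of the other 3 organs, with a required log2 difference of more than 0.4, 16 of 58 members were higher and 15 lower in kidney (13 and 7.18% of all genes), 14 and 22 in liver (14.2 and 23.2%), 16 and 14 in lung (8.27 and 8.76%) and 21 and 12 in spleen (9.49 and 9.32%). In either direction 20.1, 37.4, 17 and 18.8% of all genes were called. With TMM scaling the splits were 11 higher and 19 lower in kidney and 21 and 22 in liver.

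Prkcb had 27.9 and 27.8 in spleen and 0.602 to 1.94 in the 6 other libraries, the largest excess of spleen (4.48 on the log2 scale, SE 0.13, adjusted p = 1.58e-10). Adcy7 had 37.4 and 39.5 in spleen and 1.56 to 7.98 elsewhere (3.59, SE 0.13). Pde9a had 2.65 and 2.56 in spleen and 20.2 to 56.2 elsewhere (-3.89, SE 0.11), and Pde8b had 0.710 and 0.680 in spleen against 1.08 to 10.4 (-2.52, SE 0.15). In control RNA too, spleen was the highest organ for Prkcb and Adcy7 and the lowest for Pde9a, whereas Pde8b was lowest in liver (0.223 RPKM) and next in spleen (0.587).

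In lung Adcy2 had 7.53 and 7.76, with 0.329 to 1.18 elsewhere (3.56, SE 0.19), and Adcy8 had 2.22 and 2.21, with 0.0991 to 0.450 elsewhere (3.35, SE 0.35). Adcy1 was lowest in lung, at 0.379 and 0.481 against 3.53 to 6.31 (-3.39, SE 0.22). In kidney Plch1 had 2.99 and 3.25 against 0.0990 to 0.408 (3.51, SE 0.29), and Plcd4, a phospholipase C of the delta class, had 3.73 and 4.45 against 0.261 to 0.792 (3.14, SE 0.59). Plcb2, a blood-cell isoform, and Prkcb were the lowest of kidney, at -2.63 (SE 0.23) and -2.56 (SE 0.17).

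In liver the largest excess was Pde6c, at 12.0 and 12.7 against 0.0668 to 0.696 elsewhere (5.80, SE 0.34, adjusted p = 1.74e-08). Pde6c encodes the cone photoreceptor phosphodiesterase, and its RNA was 0.0702 RPKM in the liver controls and at most 0.00219 elsewhere. Rbp4, which carries retinol in blood, starts on the opposite strand 7500 bp upstream of Pde6c and had a control level of 1631 RPKM in liver and 0.796 to 34.3 elsewhere. Pde4c had 42.9 and 41.4 in liver and 21.9 to 41.0 in kidney, with 1.81 to 4.36 in lung and spleen (2.64, SE 0.25). The lowest of liver were Plcg2 (1.51 and 1.85 against 5.45 to 25.7) and Plcl1 (1.58 and 1.47 against 8.78 to 11.8), at -2.78 (SE 0.14) and -2.72 (SE 0.12).

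Within each organ repair per GG was higher on the TS for most members. The TS exceeded the NTS in 44 members in kidney (52.8% of 21610 genes), 41 in liver (48.1%), 48 in lung (55.4%) and 47 in spleen (54.2%), and the NTS exceeded the TS in 3, 8, 4 and 5 (4.94, 5.72, 6.08 and 5.8%). The median log2 TS/NTS ratio of the members was 2.46, 2.15, 3.19 and 3.39, and that of all genes 2.46, 1.84, 2.82 and 2.80. These tests were against 0, with the strands of 1 library as a pair.

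The 3 highest mean ratios over the organs were those of Prkci (5.01), Prkcd (4.89) and Plcl2 (4.76). In Prkci the TS level was 27.0 to 45.8 and the NTS level 0.709 to 2.29 in the 8 libraries, so the strands stood apart in every library. In Prkcd they were 51.5 to 74.3 and 0.785 to 5.17, with log2 ratios of 5.67 and 5.85 in liver and 3.495 and 3.44 in spleen.

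The 3 lowest were Pde6b (-5.05), Plcd4 (-3.99) and Pde6c (-3.27). Pde6b, the rod photoreceptor enzyme, had 0 to 0.668 on the TS and 6.65 to 10.3 on the NTS, and its control RNA was at most 0.0754 RPKM in any organ. Atp5k, a subunit of mitochondrial ATP synthase, ends on the opposite strand 847 bp past the end of Pde6b and was at 59.4 to 227 RPKM. Plcd4 had 4.97 to 17.98 on the NTS, and 16.3% of its length is covered by Usp37 and Zfp142 on the opposite strand. Pde6c had 12.0 and 12.7 on the TS and 12.1 and 11.1 on the NTS in liver, and 2.91 to 6.77 on the NTS elsewhere. Rbp4 and these neighbours were looked up after the values were seen, and their part in the ratios was not tested.

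The TS/NTS ratio differed among organs in 31 of 58 members (19.9% of all genes, adjusted p under 0.05). It changed sign in Adcy7, from log2 ratios of -2.02 and -1.97 in the kidney libraries and -1.69 and -1.75 in liver to 1.86 and 1.98 in spleen, with -0.19 and 0.15 in lung (adjusted p = 0.00171). Pde8b had 1.23 and 1.94 in kidney and 1.97 and 1.94 in lung, against -0.96 and -1.24 in liver and -2.30 and -2.13 in spleen (adjusted p = 0.00171). Brd7 ends on the opposite strand 1077 bp past the end of Adcy7 and had control levels of 7.43 to 17.8 RPKM. Wdr41 ends on the opposite strand 1140 bp past the end of Pde8b, at 2.73 to 6.31 RPKM. The part of Brd7 and Wdr41 in these ratios was not tested. Prkcb was lowest in the kidney libraries (-0.04 and 1.14), with liver at 2.28 and 1.58, lung at 3.60 and 3.20, and spleen at 4.72 and 5.12 (adjusted p = 0.00298). Without liver library 1 or 2, or lung library 1 or 2, the number of members called was 15, 13, 18 and 19.

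**Figure D3:**
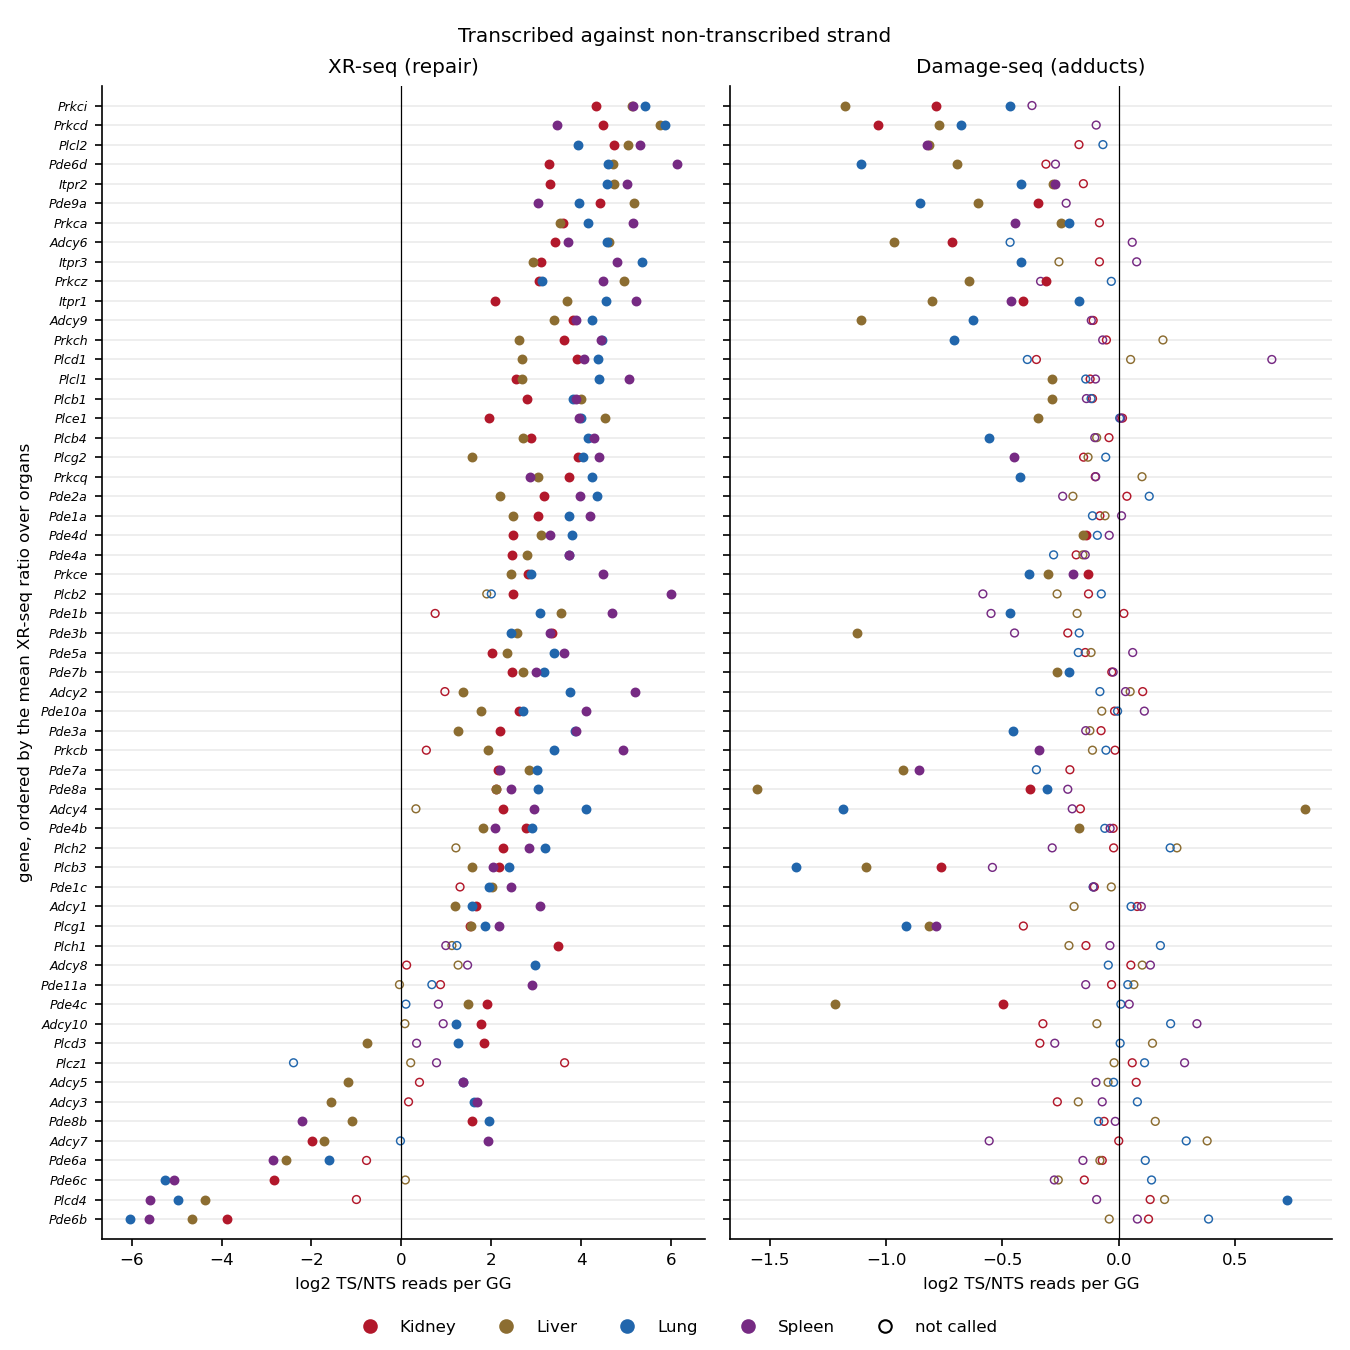
Fitted log2 TS/NTS ratio of reads per GG for the 58 members, ordered by their mean XR-seq ratio, for XR-seq at left and Damage-seq at right, with colours for organs and filled points for ratios called different from 0. Most XR-seq points lie right of 0 and most called Damage-seq points left of it, and the 4 lowest XR-seq rows, Pde6a, Pde6c, Plcd4 and Pde6b, show no call left of 0 in Damage-seq.

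On the NTS fewer members differed by organ. Higher and lower counts were 9 and 2 in kidney (10.9 and 1.6% of all genes), 14 and 4 in liver (11.4 and 2.9%), 5 and 14 in lung (1.59 and 7.23%) and 6 and 7 in spleen (2.93 and 5.14%). In either direction 12.5, 14.3, 8.83 and 8.08% of all genes were called. The reads of both strands set the library size here, and the median of all genes was at 0.45, 0.36, -0.52 and -0.30 in these comparisons. With TMM scaling of the NTS 6 members were higher and 8 lower in kidney, with 8 and 6 for liver, 8 and 4 for lung and 7 and 6 for spleen. Single libraries moved these counts further. Without kidney library 2 there were 19 calls in kidney and 21 in spleen, without liver library 1 or 2 there were 11 and 10 in liver, without lung library 1 or 2 there were 4 and 9 in lung, and without spleen library 1 there were 6 in spleen. Itpr1 had 5.70 and 5.29 in kidney, 2.63 and 2.97 in liver and 0.655 to 0.973 in lung and spleen, a kidney excess of 2.16 (SE 0.12, adjusted p = 3.14e-06).

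Damage-seq levels are relative to the reads on genes of each library, so the comparison covers how adducts were distributed over genes and not their total in an organ. On the TS 5 of 58 members were higher in kidney (8.62%), against 11.1% of all genes. In liver 2 were lower (3.45%), against 4.66% of all genes, and in lung and spleen 0 were called. In either direction 11.4, 4.68, 0.0774 and 0.0273% of all genes were called in kidney, liver, lung and spleen. The median of all genes was at 0.24 in the kidney comparison and -0.17 in that of liver. In lung and spleen 5 and 2 members had an unadjusted p under 0.05 in edgeR's test. Plcb3, a phospholipase C activated by G protein beta-gamma subunits, had 6.81 and 12.2 in kidney and 1.87 to 5.37 elsewhere (1.57, SE 0.23, adjusted p = 1.11e-05). The others of kidney were Pde4c (0.94), Plcg1 (0.94), Pde6d (0.89) and Itpr3 (0.73). Those of liver were Pde4c, at 3.06 and 5.87 against 8.71 to 15.4 elsewhere (-1.32, SE 0.24), and Pde8a, at 3.86 and 3.53 against 7.25 to 8.94 (-1.10, SE 0.15).

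Without liver library 1 the TS calls were 1 member in kidney and 1 in liver, without kidney library 2 they were 1 higher and 1 lower in kidney and 1 in lung, and with TMM scaling 1 was higher and 2 lower in kidney. On the NTS 4 of 58 members were higher in kidney (6.9%), against 6.21% of all genes, whose median was at 0.10. They were Plcb3 (1.29), Pde4c (1.04), Plcd3 (0.91) and Adcy6 (0.83), and 2 were called without kidney library 1. In either direction 6.41% of all genes were called in kidney. In liver (0.0182%), lung (0%) and spleen (0.00454%) 0 were called on the NTS, with 2, 0 and 1 at an unadjusted p under 0.05.

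Adducts per GG were fewer on the TS in 11 members in kidney (18.8% of 22939 genes), 24 in liver (29.5%), 20 in lung (24.5%) and 9 in spleen (11.8%). More lay on the TS in 0, 1, 1 and 0 (0.353, 0.868, 1.45 and 0.532%), with Adcy4 at 0.80 (SE 0.30) in liver and Plcd4 at 0.72 (SE 0.23) in lung. The median ratio of the members was -0.12, -0.18, -0.11 and -0.13, and that of all genes -0.20, -0.33, -0.25 and -0.23. Without kidney library 1, liver library 1, or spleen library 1 or 2, the calls in that organ were 0, 12, 4 and 2.

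The Damage-seq ratio differed among organs in 14 members (9.5% of all genes). In Pde8a the log2 ratio was -1.54 and -1.56 in liver and -0.45 to -0.19 in the other 6 libraries (adjusted p = 3.98e-09). Prkch, a diacylglycerol-dependent kinase C, had -0.51 and -0.90 in lung, 0.10 and 0.31 in liver, and -0.27 to 0.19 in kidney and spleen (adjusted p = 7.81e-09). Itpr1 had -0.82 and -0.78 in liver and -0.60 to -0.16 elsewhere (adjusted p = 4.38e-06).

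Plcb4 had -0.50 and -0.61 in lung and -0.15 to -0.01 elsewhere (adjusted p = 7.21e-06), and Adcy9 -1.13 and -1.07 in liver and -0.81 to 0.10 elsewhere (adjusted p = 1.59e-05). In both the libraries of the named organ were the lowest 2 of the 8. Without liver library 1 or 2 the number of members that differed among organs was 6 and 8.

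Repair and RNA levels went together across members, as they did across all genes. The organ with the highest control RPKM was also that with the highest XR-seq TS level in 29 of 58 members (50.0%), against 39.0% of 20655 genes, and that with the lowest Damage-seq TS/NTS ratio in 25 of 58 (43.1%), against 28.7%. It was the organ with the most adducts on the NTS in 15 of 58 (25.9%), against 25.6%. Spearman's rho between control RPKM and the XR-seq TS level across the 58 members was 0.83, 0.83, 0.77 and 0.83 in kidney, liver, lung and spleen. Across all 20655 genes it was 0.76, 0.72, 0.74 and 0.80. Between control RPKM and the Damage-seq TS/NTS ratio it was -0.64, -0.69, -0.72 and -0.52 in the members. In all genes that value was -0.56, -0.65, -0.50 and -0.45. These are descriptions across genes of the same libraries, in which control RNA and repair come from different mice.

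**Figure D4:**
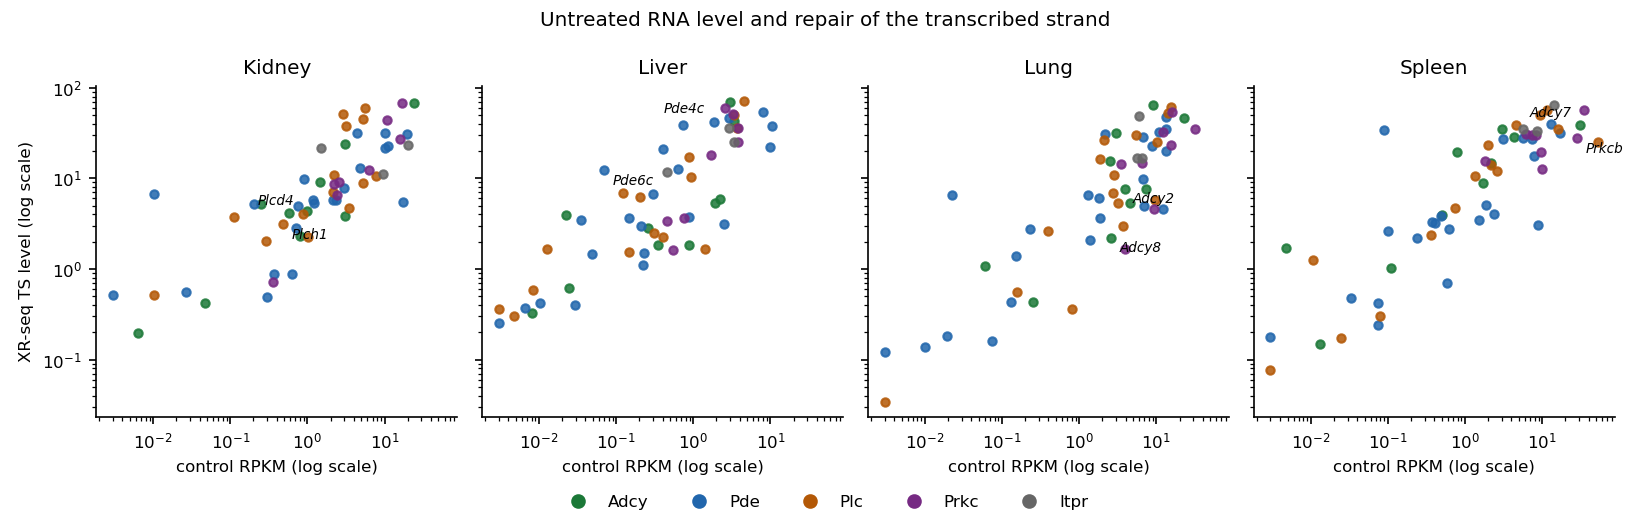
XR-seq TS level (reads per 1000000 per 1000 GG, log scale) against control RNA level (RPKM, log scale, values under 0.003 drawn at 0.003) for the 58 members in each organ, with colours for families. The levels climb together in every panel, and the members with the largest repair excess of each organ are named, among them Prkcb and Adcy7 in spleen.

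Members whose highest organ differed between XR-seq on the TS and control RNA included Plch1 (kidney and lung) and Pde4c (liver and kidney). Pde2a, a cyclic GMP-stimulated phosphodiesterase, was highest in spleen in both, but its repair was high for so low an RNA level. Its XR-seq TS level was 34.97 and 33.4 in spleen and 3.51 to 7.27 in the other libraries, while its RNA was 0.0103 to 0.0900 RPKM in the controls. It shares its strand and position with the annotated gene Gm45837, so its RNA count is uncertain. The RNA-seq kit did not mark strand, and reads of members that overlap a gene on the other strand, such as Plcg1 (78.8% of its length), cannot be told from that gene's reads in the exons they share.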

How the data were processed

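Counts of reads per gene were deposited for each library, split into transcribed (TS) and non-transcribed strand (NTS) for Damage-seq and XR-seq and unsplit for RNA-seq; the authors made these counts after trimming, alignment to mm10 and removal of duplicates, with cutadapt, BWA, Picard, STAR and featureCounts named in the submitters' processing notes. The Damage-seq and XR-seq files each held 1 line that named no gene, which was dropped. Positions, GG counts and exon lengths came from the GENCODE M21 annotation of GRCm38, and levels are RPKM or reads per 1000000 reads on genes per 1000 GG, computed from the counts.

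RNA-seq was tested per organ with edgeR (4.0.16, quasi-likelihood, TMM, low counts filtered) against a log2 change of 0.4, with Benjamini-Hochberg adjustment over all genes and a threshold of 0.05. Organ levels of RNA were tested against 1 and those of XR-seq and Damage-seq against 0.4, with library size set by reads on genes of both strands and at least 20 reads. TS was tested against NTS with GG as an offset, at least 10 GG per strand and the library as a block. The ratio per library used a pseudocount of 0.5 reads. The length ceiling of the study's methods (100000 bp) was not applied. Control pairs with a dispersion index of at most 3 (lung 2.75, spleen 2.99; other RNA-seq pairs 39.3 to 350) were summed. The Damage-seq pairs, at 1.43 to 3.11 with far fewer reads, and the XR-seq pairs, at 7.26 to 32.7, were kept apart.

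Members were named with values where called after cisplatin or in the interaction, where highest in untreated mice in their family, where among the 2 largest differences of each direction per organ in XR-seq, or among the 3 highest and lowest XR-seq strand ratios or the 5 smallest p of Damage-seq; the largest rises and falls per organ were added. The members and gene lists were chosen with earlier results of these data known. Alternatives were DESeq2 (1.42.0), other filters, scalings and fits, a replicate block, and leaving out each library. Tested on simulated data, the kidney RNA-seq fit over 15400 genes recovered 49.3% of genes changed by 1 and 100% of those changed by 2 on the log2 scale, and the lung fit over 18038 genes 23.9% and 98.5%. The simulated counts had 1 fixed dispersion for all genes, not the spread of these libraries. Changes were put only into genes without low counts. RNA-seq of liver and spleen was not simulated, so recovery there is not known.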

Additional observations from a re-analysis of the deposited data

Results flagged for a closer look

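The RNA response to cisplatin differed among organs for Adcy1 (adjusted p = 0.0400 for the organ by treatment interaction), higher in both liver libraries and lower in both libraries of the other organs. The XR-seq TS/NTS ratio differed among organs for 31 members. Among those named by the rule, the adjusted p of this F test was 0.00171 for Adcy7 and for Pde8b, 0.00298 for Prkcb, 0.00353 for Plcl1, 0.00678 for Pde6c, 0.00716 for Prkcd, 0.00852 for Plcg2, 0.0117 for Plcd4, 0.0152 for Adcy2 and 0.0185 for Plcl2. The Damage-seq TS/NTS ratio differed among organs for 14 members, with an adjusted p of 3.98e-09 for Pde8a, 7.81e-09 for Prkch, 4.38e-06 for Itpr1, 7.21e-06 for Plcb4 and 1.59e-05 for Adcy9. Groups held 2 libraries each, too few to test single libraries as outliers.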

How the results depend on the processing

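No called member changed direction under any alternative run, but the direction with more calls did change in some runs. With TMM scaling it changed for XR-seq in kidney on both strands and in lung and spleen on the NTS. It also changed for Damage-seq on the TS in kidney. The counts of members called after cisplatin moved most. Without a filter on low counts they were 18 in kidney, 6 in liver and 17 in lung, and 2 members had a called interaction. With 1 fit over all organs they were 5, 14 and 4. DESeq2 called 7 in liver. A test against 0 called 14 in lung, and counting each control library as a replicate called 20. With each library as a replicate, 11 members had a called interaction and 28 a called spleen level (13 higher, 15 lower). In spleen 0 members were called after cisplatin under each alternative.

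With the replicate number as a block, and every library counted, kidney had 21 called members, liver 17, lung 25 and spleen 0, and 18 had a called interaction (adjusted p = 0.00637 for Adcy1). Libraries of the same number deviated together with correlations across genes of 0.473, 0.387, 0.0593 and 0.331 in kidney, liver, lung and spleen, from 2 pairs per organ, so the numbers were not taken to pair the samples.

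Leaving out 1 library at a time gave 1 to 18 calls after cisplatin in kidney, 1 to 21 in liver and 0 to 7 in lung, and 0 to 4 for the interaction. In lung the 0 came from the fit over all organs, which alone gave 4, since leaving out a cisplatin library left 1 sample an arm, and the 7 from the fit of that organ. For XR-seq on the NTS kidney had 8 to 19 calls, liver 10 to 24, lung 4 to 26 and spleen 6 to 21, and for the XR-seq strand difference the range was 13 to 39. For Damage-seq it gave 1 to 5 in kidney, 1 to 2 in liver and 0 to 1 in lung on the TS, 2 to 4 in kidney on the NTS, 0 to 12, 12 to 25, 14 to 21 and 2 to 9 for the strand ratio in kidney, liver, lung and spleen, and 6 to 15 for its difference. TMM scaling gave 12 calls for XR-seq on the NTS in lung and 3 for Damage-seq on the TS in kidney. The members' median Damage-seq strand ratio, averaged over the libraries, was -0.15 and for members under 100 kb -0.21. The cause of these changes was not tested. Damage-seq had the fewest reads on genes (1570404 to 6438357), and the effect of depth was not tested.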

Other observations

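Plcz1, the sperm phospholipase C, passed the filter on low RNA counts in no organ, and Pde6c passed in liver only.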
